A study of Mus musculus with 4 samples.

Results

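Tumour-infiltrating monocytes were followed here in mouse subcutaneous tumours that had been injected with interleukin 27 (IL-27) or with vehicle. They were 395 of 20607 cells: 218 of 9990 cells from IL-27 tumours and 177 of 10617 cells from control tumours. Cells were first kept with at least 200 genes, at least 500 unique molecular identifiers (UMIs, each standing for 1 captured transcript) and under 10% of UMIs from mitochondrial genes. A kept cell was then taken as a monocyte on its transcript counts alone. It needed at least 3 UMIs of Vcan, Chil3 and Ms4a4c together with at least 2 of the 3 genes seen, and at least 3 UMIs of the myeloid lysozyme gene Lyz2. It could hold at most 2 UMIs of the macrophage complement genes C1qa, C1qb and C1qc, at most 4 of the neutrophil genes S100a8 and S100a9, none of the T cell genes Cd3d, Cd3e and Cd3g, and at most 1 of the keratin genes Krt8 and Krt18. These genes chose the cells, so their values are given as a description.

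The tumours were grown for 14 days under the skin of B6C3F1 mice, labelled as 6 to 8 weeks old, from 1000000 cells of OV2944-HM1, a mouse ovarian cancer line. In the IL_27 group 100 ng of recombinant mouse IL-27 per mouse was given at the tumour from the day of implantation and again on every other day, and the control group received vehicle by the same scheme. All tumours of both groups were thus injected, came from 1 line and lay outside the ovary. Blood-derived cells were enriched with magnetic beads against CD45 and sequenced with a droplet 5' kit. Although 2 entries carry each group name, the counts of a group form 1 matrix that does not say which entry a cell came from. Thus n = 1 per group, no test was made, and no difference has a replicate check. How many animals went into a matrix is not given in the sources used here.

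Classical monocytes leave the bone marrow with high surface Ly6C and the chemokine receptor CCR2, which follows CCL2 into inflamed tissue and tumours. In a tumour they lose Ly6C over days and take on macrophage or dendritic features, such as MHC class II. IL-27 is a cytokine of the IL-12 family that signals through the receptor chains IL-27RA and gp130 (gene Il6st) to STAT proteins, among them STAT3.

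The monocytes held 1530936 UMIs in the IL-27 matrix and 1658190 in the control matrix, with medians of 6534.5 and 8752 UMIs per cell and of 1.60% and 1.35% mitochondrial UMIs. The IL-27 matrix was also shallower over all kept cells, with medians of 1870.5 and 2408 UMIs. Gm42418, a gene model that collects ribosomal RNA reads, made up 7.0% of monocyte UMIs in the IL-27 matrix and 4.08% in control, and its ratio was 1.71 in monocytes, 1.63 in macrophages and 1.44 in neutrophils. Lars2, a mitochondrial tRNA synthetase gene, had a ratio of 1.80 in monocytes, 0.812 in macrophages and 1.01 in neutrophils, and the gene model AY036118 ratios of 0.885, 0.847 and 0.844. Short transcripts also stood lower: over 10 bins of genes by transcript length, median log2 ratios ran between -0.22 in bin 2, among the shortest, and 0.17 in bin 10, the longest. Results were recomputed with cells chosen at other depths, with these 3 genes left out of the total and with the length trend removed, among the alternatives described at the end. Leaving the 3 genes out of the total moved the median log2 ratio of all genes from -0.017 to 0.031. How much of a result that follows comes from depth, these genes or length was not tested. Barcodes shared by both matrices numbered 133, with 131 of them in kept cells, and no shared barcode was a monocyte in both. Levels below are UMI counts scaled to a sum of 1000000 (CPM) of the summed monocytes, ratios are IL-27 over control, and 95% intervals cover counting error only. UMIs of 1 cell are not independent, so the spread between tumours is not in them. In summed counts, fewer cells that make a transcript and less of it per cell cannot be told apart.

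Genes that the rule had not used went with the name monocyte. Ly6c2 (ENSMUSG00000022584, chromosome 15, minus strand), which encodes Ly6C and is the textbook mark of classical monocytes, stood at 747 CPM (704 to 791) in IL-27 monocytes and at 1224 CPM (1172 to 1279) in control monocytes. A Ly6c2 UMI was seen in 78.0% and 80.2% of these cells. With every cell thinned to 1000 UMIs, to put unequal depths on the same footing, the shares were 45.4% of IL-27 and 46.9% of control monocytes. In macrophages chosen by C1q genes the thinned shares were 0% (0 of 528 cells, which allows up to 0.568%) in the IL-27 matrix and 0.602% in control. In neutrophils chosen by S100a8, S100a9 and Csf3r they were 2.54% and 5.12%. Both classes, which should lack the gene, lay far below the monocytes, at median depths of 3398 and 4439 UMIs in macrophages and of 1936 and 2547 UMIs in neutrophils before thinning. The macrophages were also chosen to hold at most 2 UMIs of Vcan, Chil3 and Ms4a4c together. That limit leaves out macrophages with more monocyte transcripts, and its part in the gap was not tested. The level of Ly6c2 was lower in IL-27 monocytes, with a ratio of 0.610 (0.567 to 0.656), while the share of cells with a UMI was nearly equal. Part of the Ly6c2 sequence also occurs in its neighbour Ly6c1, so reads of the pair can be split between them: 32.6% of the 50-base windows of the longest Ly6c2 transcript were found in a Ly6c1 transcript. Ly6c1 itself had a ratio of 1.27 (1.01 to 1.59).

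Ccr2 (ENSMUSG00000049103, chromosome 9, plus strand), the receptor gene for CCL2, stood at 136 CPM (118 to 156) in IL-27 monocytes and 115 CPM (98.9 to 132) in control monocytes, a ratio of 1.19 (0.969 to 1.45). After thinning, 13.8% and 10.7% of monocytes had a Ccr2 UMI, against 1.70% and 3.25% of C1q macrophages. Plac8, another gene of recently arrived monocytes, stood at 1628 and 1719 CPM in monocytes and at 94.2 and 165 CPM in C1q macrophages. Among the genes of the rule, Vcan (the proteoglycan versican) stood at 556 and 402 CPM, Chil3 (the chitinase-like protein Ym1) at 405 and 534 CPM, and Ms4a4c (a membrane protein gene that interferon induces) at 323 and 334 CPM.

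**Figure D1:**
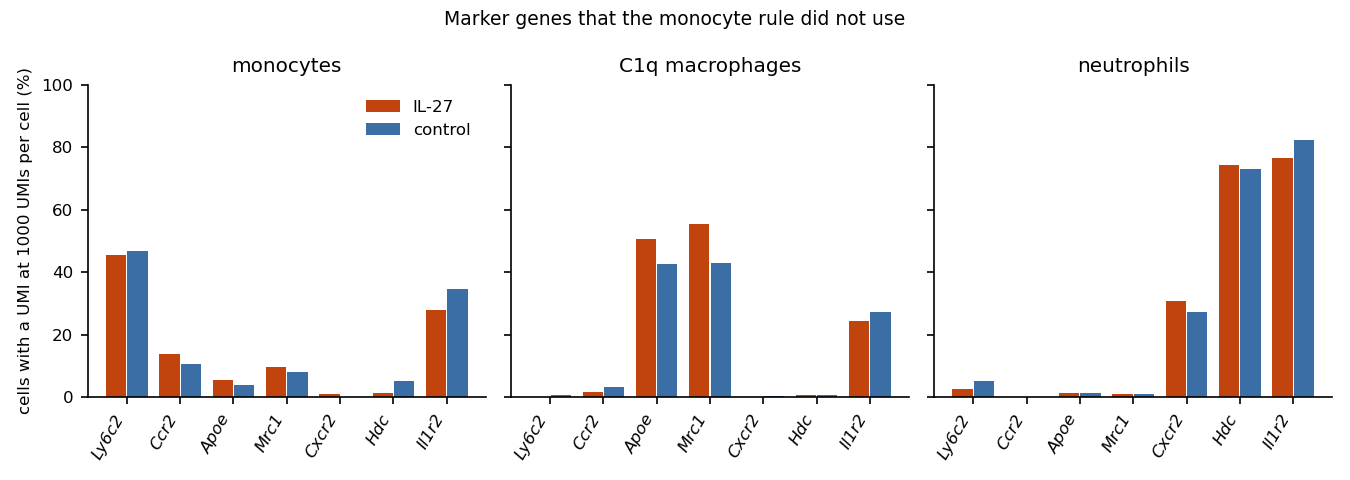
Share of cells with a UMI of each gene after every cell was thinned to 1000 UMIs (y axis, percent), for monocytes, C1q macrophages and neutrophils, with the IL-27 matrix left of control for each gene. None of these genes was used to choose the monocytes: Ly6c2 was seen in 45.4% and 46.9% of them and Ccr2 in 13.8% and 10.7%, while Apoe stood at 5.50% and 3.95% in monocytes and at 50.6% and 42.6% in macrophages.

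Markers of lymphoid, stromal and erythroid cells were low or absent, while some myeloid markers were present. Erythroid markers were at 0 for 5 of 5 genes in both matrices. Of 8 NK cell markers, 7 were at 0 in the IL-27 and 6 in the control monocytes, and of 7 fibroblast markers 7 and 5 were at 0. T cell markers summed to 137 and 125 CPM, nearly all from Il7r, which monocytes can carry, and the defining genes Trbc1, Trbc2 and Trac had at most 1 UMI in either matrix. Macrophage markers that the rule did not use were present in part of the cells, with Apoe at 79.0 and 42.8 CPM. Neutrophil markers summed to 8978 and 10626 CPM, of which the chemokine gene Cxcl2, which monocytes also make, gave 8445 and 9512 CPM. The other 9 neutrophil markers summed to 534 CPM in IL-27 and 1114 CPM in control monocytes, giving a ratio of 0.479 (0.441 to 0.521), so they moved with the matrices, and their part in the results below was not tested. Most of that came from Il1r2, a decoy receptor for IL-1, at 361 and 716 CPM with a UMI in 56.0% and 76.8% of cells. The gelatinase gene Mmp9 stood at 56.2 and 241 CPM and Cxcr2 at 1.96 and 1.81 CPM. S100a8, at 21.6 and 18.1 CPM, and S100a9 are among the 9, but the rule capped both, so their low level was set by the choice of cells. Part of the dendritic markers were widespread. Of 8 mature dendritic markers, 3 were seen in at least 5% of IL-27 and 4 in at least 5% of control monocytes. For 8 type 1 dendritic markers these numbers were 3 and 3, and for 8 type 2 markers 4 and 3. Cd83 was seen in 83.0% and 71.2% of cells, Naaa in 60.6% and 67.2%, and Irf8 in 33.5% and 45.8%. Other mature dendritic markers rested on few cells. Ccr7 stood at 3.27 CPM in IL-27 and 67.5 CPM in control monocytes, but 3 control cells held 81.2% of its UMIs there, and for Ccl22 3 control cells held 93.5%. In the IL-27 matrix 1 cell carried the plasmacytoid dendritic genes Siglech (19 UMIs), Klk1 (17 UMIs) and Cox6a2 (13 UMIs), which were at 0 in control monocytes.

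The share of monocytes that lay at the lower limit of the monocyte genes was larger in the IL-27 matrix. With 3 UMIs of Vcan, Chil3 and Ms4a4c, just inside, there were 36 IL-27 and 16 control cells (16.5% and 9.04% of the monocytes), and with 2 UMIs, just outside but meeting all else, there were 23 and 19. Asking for 5 UMIs left 163 IL-27 and 141 control cells. Ly6c2 UMIs were seen in 52.8% of the IL-27 and 62.5% of the control cells just inside, and in 52.2% and 42.1% of those just outside. The C1q limit left 4 cells just inside in each matrix and 2 and 6 just outside.

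Monocytes were a larger share of the IL-27 matrix. They made up 2.18% (1.90 to 2.49) of kept IL-27 cells and 1.67% (1.43 to 1.93) of kept control cells, a ratio of 1.31 (1.07 to 1.61), with exact Clopper-Pearson intervals for the shares. C1q macrophages were a smaller share of it, with 561 and 884 cells and a ratio of 0.674 (0.606 to 0.751). Of monocytes and C1q macrophages together, monocytes were 28.0% (24.9 to 31.3) in the IL-27 matrix and 16.7% (14.5 to 19.1) in control, a ratio of 1.68 (1.37 to 2.06). The ratio of 1.31 was 1.52 when control counts were thinned to the IL-27 median depth before the rule was applied, an alternative chosen after the data were seen. The bead sort and its yield can also set these shares, and their part was not tested.

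Other genes set the monocytes apart from C1q macrophages and neutrophils in both matrices. The genes that stood furthest above both C1q macrophages and neutrophils were Ly6c1, Ly6c2, Plac8, S100a4, Dmkn and Ifi205, followed by Plcb1, Tppp3 and Itgb7. S100a4, a calcium-binding protein gene of motile cells, stood at 2160 and 1562 CPM in monocytes, at 209 and 134 CPM in macrophages and at 148 and 54.3 CPM in neutrophils. Ifi205, an interferon-inducible DNA sensor of the PYHIN family, stood at 288 and 419 CPM in monocytes and at 26.6 and 40.9 CPM in macrophages. Itgb7, an integrin chain of homing leukocytes, stood at 58.8 and 67.5 CPM against 3.42 and 5.30 CPM in macrophages. The ranking took the smallest excess over both classes and both matrices, so the agreement of the matrices was set by it. Not all of these genes were widespread: Itgb7 was seen in 3.21% of IL-27 and 4.52% of control monocytes after thinning. The cells were cut out by transcripts, so the excess of these genes is a description with no test. Type 2 dendritic cells chosen by Cd209a and Flt3 numbered 14 in each matrix and were too few to set beside the monocytes.

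The monocytes varied along a Ly6c2 axis in both matrices. After thinning, 99 of 218 IL-27 monocytes and 83 of 177 control monocytes held a Ly6c2 UMI, and a cell without one can still make the transcript, so the split is a range and not a pair of types. Of 5671 genes, 144 (2.54%) were at least 1.5 times higher without Ly6c2 in both matrices and 123 (2.17%) were at least 1.5 times lower. Cells without Ly6c2 had more MHC class II: 6 of 12 genes were higher by this measure and 0 lower, and the median log2 ratio without over with Ly6c2 was 0.47 in the IL-27 and 0.68 in the control matrix. H2-Ab1, the beta chain of I-A, stood at 1328 CPM without and 598 CPM with Ly6c2 in IL-27 monocytes, and at 2159 and 767 CPM in control monocytes. The dendritic list had 7 of 17 genes higher and 0 lower without Ly6c2, among them Mgl2, a lectin of dendritic cells and alternatively activated macrophages. Mgl2 stood at 53.7 CPM without and 4.22 CPM with Ly6c2 in IL-27 monocytes and at 88.2 and 5.17 CPM in control monocytes. The other leading genes of that side were the matrix metalloproteinases Mmp9 and Mmp12, Plet1, the lipase Lpl, the receptor Tnfrsf9 and the phagocytic receptor Axl.

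Cells with Ly6c2 carried more interferon-stimulated transcripts in both matrices. Of 34 type I interferon-stimulated genes 16 were at least 1.5 times lower without Ly6c2 in both matrices and 0 higher, and the median log2 ratio without over with was -0.73 in the IL-27 and -0.92 in the control matrix. Irf7, the factor that amplifies interferon production, stood at 43.9 CPM without and 90 CPM with Ly6c2 in IL-27 monocytes and at 89.3 and 259 CPM in control monocytes. The classical list had 4 of 15 genes lower and 0 higher without Ly6c2. Glycolysis genes stood slightly higher without Ly6c2, with medians of 0.29 and 0.39 and 3 of 27 genes past the fold. Oxidative phosphorylation and housekeeping genes lay within 0.02 of 0 on this scale in both matrices.

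**Figure D2:**
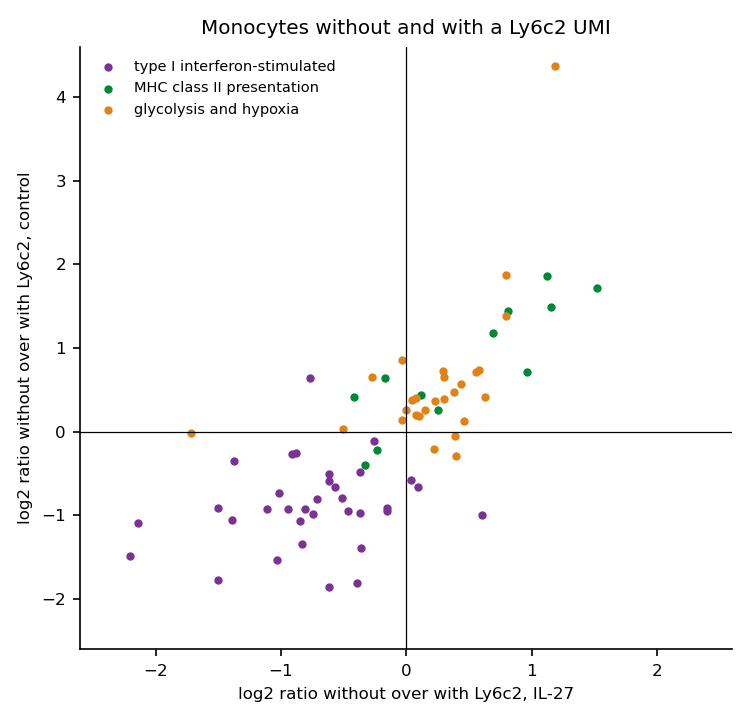
Each point is a gene, with the log2 ratio of its CPM in monocytes without a Ly6c2 UMI over those with one in the IL-27 matrix (x axis) and in the control matrix (y axis). Type I interferon-stimulated genes lie mostly below 0 on both axes (medians of -0.73 and -0.92), and MHC class II genes mostly above 0 (medians of 0.47 and 0.68).

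Between IL-27 and control monocytes, most genes differed little. Of 5677 genes with at least 50 UMIs over both matrices, 395 (6.96%) were at least 1.5 times higher in IL-27 monocytes and 460 (8.1%) at least 1.5 times lower, and the median log2 ratio was -0.02. These shares are the background against which each gene list below is read. They are past a fold and not past a test, and the counts depend on the UMI minimum.

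The gene furthest above control was Hmox1, and Gclm, Gclc and Sod1, which also encode enzymes of antioxidant defence, were among the 12 furthest above it. Hmox1 (ENSMUSG00000005413, chromosome 8, 75093621 to 75100589, plus strand, GRCm38), which encodes the heme-degrading enzyme heme oxygenase 1, stood at 244 CPM (220 to 270) in IL-27 monocytes and at 44.0 CPM (34.5 to 55.4) in control monocytes, a ratio of 5.55 (4.31 to 7.23). It was seen in 33.0% and 19.2% of cells, and 11% and 3.39% after thinning. Gclm (ENSMUSG00000028124, chromosome 3, 122245557 to 122270732, plus strand), the modifier subunit of the enzyme that starts glutathione synthesis, stood at 78.4 and 18.7 CPM, giving a ratio of 4.19 (2.81 to 6.44). Its catalytic partner Gclc stood at 39.8 and 15.7 CPM, giving a ratio of 2.54 (1.58 to 4.19). Sod1, the cytosolic superoxide dismutase gene, stood at 104 and 41.0 CPM, giving a ratio of 2.53 (1.89 to 3.42). Hmox1 was also higher in C1q macrophages, with a ratio of 1.91 (1.78 to 2.04), whereas that of Gclm there was 0.938 (0.724 to 1.21). In neutrophils the ratios were 0.819 for Hmox1, 1.93 for Gclm, 1.14 for Gclc and 2.40 for Sod1. Over all kept cells other than monocytes they were 1.08, 1.18, 1.46 and 2.06 in the same order. The excess of Sod1 was thus not particular to monocytes.

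Of 28 antioxidant genes, listed after these leading genes had been seen, 25 had at least 50 UMIs, 5 were at least 1.5 times higher and 1 was lower, with a median log2 ratio of 0.18. The list holds Hmox1, Gclm, Gclc and Sod1, which prompted it. Without them 1 of 21 genes was higher (4.76%, beside 6.96% of all genes) and 1 lower, with a median of 0.08. The higher gene that remained was Slc7a11, the cystine importer that feeds glutathione synthesis, at 719 CPM in IL-27 and 364 CPM in control monocytes, a ratio of 1.97 (1.78 to 2.18). A Slc7a11 UMI was seen in 47.2% and 21.5% of thinned cells, so the excess was spread over many cells. Slc7a11 was higher outside the monocytes too, with ratios of 1.28 in macrophages, 2.12 in neutrophils and 1.63 over all other kept cells. The lower gene was Gpx4, the glutathione peroxidase that reduces lipid peroxides, at 240 and 412 CPM. Nfe2l2, the gene of the regulator NRF2, had a ratio of 1.05 (0.919 to 1.20). Below the fold but with intervals above 1 were the thioredoxin reductase gene Txnrd1 with 1.37 (1.23 to 1.53), the peroxiredoxin gene Prdx1 with 1.24 (1.12 to 1.38) and the autophagy receptor gene Sqstm1 with 1.43 (1.30 to 1.58). Nqo1, a classical NRF2 target, had 4 and 2 UMIs.

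Other genes far higher in IL-27 monocytes had varied roles. Cxcr4 (ENSMUSG00000045382, chromosome 1, 128588199 to 128592293, minus strand), the receptor for the retention chemokine CXCL12, stood at 236 CPM in IL-27 monocytes and 92.9 CPM in control monocytes, a ratio of 2.54 (2.10 to 3.09). It was seen in 57.8% and 39.0% of cells. Its ratio was 1.08 in macrophages, 1.39 (1.29 to 1.49) in neutrophils and 1.38 (1.34 to 1.43) over all other kept cells. Atf3, an immediate early stress factor, had a ratio of 2.76 (2.00 to 3.84), but 3 cells held 47.1% of its IL-27 and 41.8% of its control UMIs. Maf, a transcription factor of mature macrophages and of IL-10 production in T cells, had a ratio of 2.47 (68.6 and 27.7 CPM) and one of 2.54 in macrophages. The histone demethylase gene Kdm3a had a ratio of 3.09, the collagen-binding integrin gene Itga1 one of 2.54, and Ankrd28, Sowahc and Sh3bp5 ratios of 4.08, 2.73 and 2.54. In neutrophils the ratios of these genes were 1.08, 0.701, 4.26, 0.974 and 2.06 in the same order. Over all other kept cells they were 1.07, 1.58, 1.31, 1.22 and 1.46.

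The 12 genes furthest lower in IL-27 monocytes were low in counts and had varied roles. They had 9 to 87 UMIs in IL-27 and 51 to 272 UMIs in control monocytes, and they met the minimum of 10% of cells in the control matrix, where they were higher. Actn1 for example was seen in 2.29% and 12.4% of cells. Actn1 (ENSMUSG00000015143, chromosome 12, 80167547 to 80260371, minus strand), the actin cross-linker alpha-actinin 1, stood at 5.88 and 39.2 CPM, giving a ratio of 0.15 (0.0657 to 0.303), with 46.2% of its control UMIs in 3 cells. Gys1, the muscle-type glycogen synthase, stood at 5.88 and 33.2 CPM, giving a ratio of 0.177 (0.0770 to 0.361), and was seen in 3.21% and 17.5% of cells. Rhoc (a small GTPase of cell motility) had a ratio of 0.279 and Tuba1a (an alpha-tubulin) one of 0.344. Oasl1 and Plscr1, both interferon-inducible, had ratios of 0.303 and 0.324, and Snai1, the repressor Snail, one of 0.250. The remaining lower genes were Appl2, Nutf2, Hic1, Ddt and Car4, with ratios of 0.297 to 0.346, and 3 control cells held 57.0% of the Car4 UMIs. Hic1 had a log2 ratio of 0.068 with the rule on cells thinned to 2000 UMIs, and Car4 one of 0.29 with a Ly6c2 UMI required. Part of the 12 genes were lower outside the monocytes too. Over all other kept cells their ratios ran from 0.419 for Snai1 to 1.00 for Actn1. In neutrophils Snai1 had a ratio of 0.259 (0.203 to 0.327) and Oasl1 one of 0.461, whereas Actn1 had one of 1.11.

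**Figure D3:**
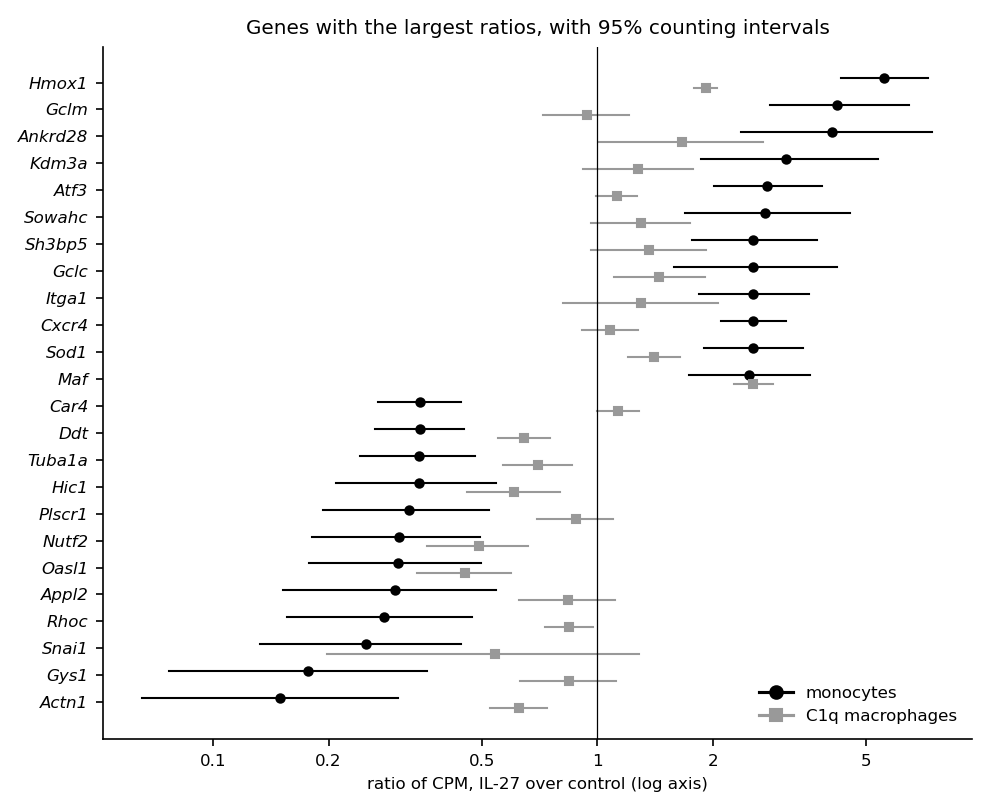
Ratio of CPM, IL-27 over control, on a log axis for the 12 genes furthest above and the 12 furthest below 1 in monocytes, with monocytes as circles, C1q macrophages as squares and bars for 95% counting intervals. Hmox1 leads at 5.55 in monocytes and stands at 1.91 in macrophages, whereas Maf lies at 2.47 and 2.54.

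Type I interferon-stimulated genes stood lower in IL-27 monocytes as a list. Of 44 listed genes, 42 were in the matrices and 34 had at least 50 UMIs. Of these 17 were at least 1.5 times lower and 0 higher, beside 8.1% and 6.96% of all genes, and the median log2 ratio was -0.60. The lowest were the RNA sensor regulator Dhx58 with 8.49 and 29.6 CPM and a ratio of 0.287 (0.143 to 0.538), Oasl1 with 13.7 and 45.2 CPM, and Slfn4, a Schlafen gene of myeloid cells, with 30.7 and 80.8 CPM and a ratio of 0.38 (0.266 to 0.533). Irf7 stood at 65.3 and 168 CPM, giving a ratio of 0.388 (0.306 to 0.490). The members nearest to 1 were Ms4a4a with a ratio of 0.963, Ifi204 with 0.932 and Slfn1 with 0.841, so no member of the 34 stood above 1.

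The lower level was seen in the median cell and in macrophages, but not in every way of choosing the monocytes. A monocyte thinned to 1000 UMIs held a median of 7 UMIs of these genes in the IL-27 and 11 in the control matrix, with upper quartiles of 12 and 16. In C1q macrophages the median log2 ratio of the list was -0.66, and once each gene's ratio in all other cells was taken off, the monocyte median was -0.16. When the rule was applied to cells thinned to 2000 UMIs, only 71 IL-27 and 66 control cells remained, 2 of 27 genes were higher and 2 lower, and the median was 0.018. In the 152 IL-27 and 121 control monocytes that the thinned rule left out, 22 of 31 genes were lower and 0 higher, with a median of -0.79. With control counts thinned only to the IL-27 median depth before the rule, 218 and 152 cells remained and the median was -0.71. The rule itself uses Ms4a4c, which interferon induces.

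Promoters of the list hold the sequence that interferon-activated factors are known to bind. The interferon-stimulated response element was searched as GAAANNGAAA on both strands in RefSeq promoters (250 bases before to 50 bases after the start, GRCm38.p6), where matches may overlap. It was found in 20 of the 34 promoters available for the listed genes (58.8%), and in 944 of 27025 promoters of all genes (3.49%). The match is not particular to this list: the interferon gamma list held it in 12 of 22 promoters (54.5%). The MHC class I list held it in 5 of 19 (26.3%). Within the type I list it was found in 8 of 14 lower members (57.1%) and in 8 of 13 members that were neither higher nor lower (61.5%). The 3 promoters shown here belong to the lower members with the most UMIs that hold a match, with the matches in capitals, and hold it once (Slfn5) or in overlapping copies (Isg15 and Bst2). The first match begins at position -78, -130 and -155 from the start in Isg15, Bst2 and Slfn5. Isg15 encodes a ubiquitin-like modifier (208 CPM in IL-27 and 491 CPM in control monocytes, a ratio of 0.424, 0.372 to 0.484), Bst2 the virus tether tetherin (187 and 299 CPM, 0.628, 0.541 to 0.728) and Slfn5 another Schlafen protein (103 and 174 CPM, 0.588, 0.481 to 0.717). They lie at chr4:156200769-156201068 (minus strand), chr8:71537423-71537722 (minus strand) and chr11:82951852-82952151 (plus strand). A match is a description of these letters and not a shown binding site.
Isg15: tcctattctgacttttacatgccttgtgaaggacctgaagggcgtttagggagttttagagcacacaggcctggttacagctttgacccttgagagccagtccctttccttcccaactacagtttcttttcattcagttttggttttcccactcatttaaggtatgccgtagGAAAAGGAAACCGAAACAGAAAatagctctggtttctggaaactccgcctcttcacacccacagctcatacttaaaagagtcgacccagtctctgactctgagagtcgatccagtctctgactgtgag
Bst2: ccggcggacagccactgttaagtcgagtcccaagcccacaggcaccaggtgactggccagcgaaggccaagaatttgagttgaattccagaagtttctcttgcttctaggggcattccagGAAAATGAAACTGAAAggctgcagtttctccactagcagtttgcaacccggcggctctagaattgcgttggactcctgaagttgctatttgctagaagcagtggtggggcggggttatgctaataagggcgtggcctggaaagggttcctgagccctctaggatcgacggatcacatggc
Slfn5: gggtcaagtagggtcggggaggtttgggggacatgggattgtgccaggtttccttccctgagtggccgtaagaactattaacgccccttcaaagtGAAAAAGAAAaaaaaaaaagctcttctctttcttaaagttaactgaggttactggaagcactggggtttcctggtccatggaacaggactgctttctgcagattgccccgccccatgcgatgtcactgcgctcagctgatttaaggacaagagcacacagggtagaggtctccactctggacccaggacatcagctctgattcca

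Over all monocytes, genes induced by interferon gamma did not move with the type I list. Of 21 genes 4 were higher and 1 lower, with a median log2 ratio of -0.01. The higher ones were Cxcl10, Ciita, Gbp5 and Gbp3, and their counts were small or uneven: 3 cells held 80.8% of the Cxcl10 UMIs in the IL-27 matrix, and Ciita had 36 and 23 UMIs, a ratio of 1.70 (0.978 to 3.0). Cxcl10, which draws CXCR3-bearing T cells, stood at 143 and 82.0 CPM, and its log2 ratio was -0.16 without monocytes that carried markers of other cells, an alternative added after the data were seen, and -1.14 with the rule on thinned cells. The lower gene was Fcgr1, the high-affinity IgG receptor, at 120 and 221 CPM, giving a ratio of 0.542 (0.451 to 0.648). The sides of the Ly6c2 split differed for this list. In cells with Ly6c2 1 of 16 genes was higher and 1 lower, beside 8.76% and 8.68% of all genes, with a median of 0.05. In cells without it 0 of 15 were higher and 4 lower, beside 9.83% of all genes lower. The median there was -0.34, near the -0.36 of the type I list on that side, and the difference between the sides was not tested.

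Genes of MHC class II presentation stood lower in IL-27 monocytes. Of 12 genes 6 were at least 1.5 times lower and 1 higher, and the median log2 ratio was -0.59, beside -0.26 in C1q macrophages. H2-DMb2, a subunit of the peptide loader DM, stood at 45.1 and 104 CPM, giving a ratio of 0.435 (0.324 to 0.578). H2-Eb1, the beta chain of I-E, stood at 599 and 984 CPM, giving a ratio of 0.609 (0.561 to 0.660). The other lower members were H2-Aa, H2-Ab1 and the invariant chain gene Cd74, with ratios of 0.625 to 0.655, and Cst3, a protease inhibitor of dendritic cells, with 0.563. A total of 3 control cells held 30.8% of the Cst3 UMIs, and the log2 ratio of Cst3 was -0.42 without monocytes that carried markers of other cells, beside -0.83 with them. The 1 higher gene was Ciita, the master regulator of the class II genes, and nearest to 1 were the protease Ctss at 0.914 and H2-DMa at 0.883. Median UMIs of the list per thinned cell were 6 and 9.

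MHC class I genes differed less. Of 20 genes 5 were lower and 0 higher, with a median log2 ratio of -0.33, beside -0.03 in macrophages. The lowest were H2-Q4 with a ratio of 0.462 (0.330 to 0.638), the immunoproteasome subunit Psmb9 with 0.610 (0.495 to 0.750) and H2-M3 with 0.613 (0.378 to 0.977), while the light chain B2m stood at 1478 and 1452 CPM, a ratio of 1.02. With the rule on thinned cells the log2 ratio of H2-M3 was 0.39. The dendritic list had 7 of 17 genes lower and 1 higher, with a median of -0.20, and of 0.16 when a Ly6c2 UMI was required of each cell. Its lowest genes Ccr7, Ccl22 and Ccl17 rested on few cells, with 62.3% of the control Ccl17 UMIs in 3 cells. Clec10a, a lectin of type 2 dendritic cells and macrophages, stood at 49.6 and 22.9 CPM, giving a ratio of 2.17 (1.45 to 3.29). Cd209a, another marker of that cell type, had 45 and 4 UMIs, with 64.4% of the IL-27 UMIs in 3 cells.

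**Figure D4:**
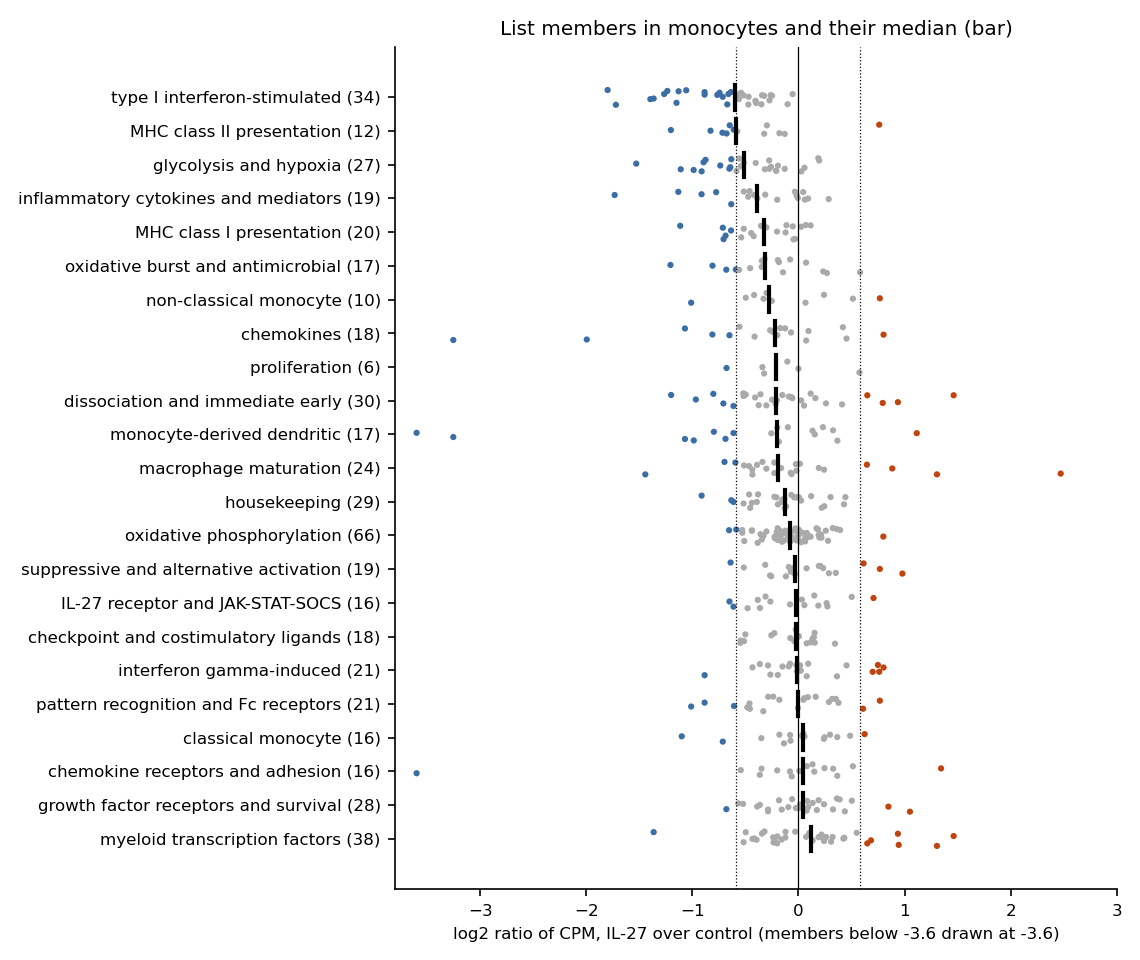
Log2 ratio of CPM, IL-27 over control, for each list member with at least 50 UMIs (points) and the list median (black bar). The number of such members stands beside each name, and dotted lines mark 1.5-fold. The type I interferon list lies furthest left, with a median of -0.60 and 17 of 34 members past the fold, and myeloid transcription factors furthest right, with a median of 0.12.

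Glycolysis and hypoxia genes were lower too. Of 27 genes 10 were at least 1.5 times lower and 0 higher, with a median log2 ratio of -0.52 in monocytes and -0.06 in C1q macrophages. Mif, a cytokine that hypoxia induces, stood at 379 and 818 CPM, giving a ratio of 0.463 (0.420 to 0.511), and was seen in 24.8% and 44.1% of thinned cells. Aldoa, a glycolytic aldolase, stood at 475 and 942 CPM, giving a ratio of 0.504 (0.461 to 0.551), and Gpi1, the isomerase before it in the pathway, at 199 and 375 CPM, a ratio of 0.531. The glucose kinases Hk2 and Hk3 and the lactate exporter Slc16a3 had ratios of 1.15 (0.969 to 1.35), 1.14 (0.825 to 1.57) and 1.04 (0.917 to 1.18), the highest of its members with at least 50 UMIs. Hk1, another glucose kinase gene, had a ratio of 0.686 (0.483 to 0.966), and the glucose importer gene Slc2a1 one of 0.756 (0.628 to 0.910), neither past the fold. A thinned monocyte held a median of 8 UMIs of the list in the IL-27 and 12 in the control matrix.

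Part of the same genes serve as housekeeping genes. Of 29 housekeeping genes 3 were lower and 0 higher, with a median of -0.13, and these were Gpi1, Gapdh and the actin regulator Pfn1 with ratios of 0.531, 0.645 and 0.654. With the trend over transcript length removed the glycolysis median was -0.42, and with each gene's ratio in all other cells taken off it was -0.17. Oxidative phosphorylation genes were near level: of 66 genes 1 was higher and 2 lower, with a median of -0.08, and of 0.039 with the trend over transcript length removed.

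**Figure D5:**
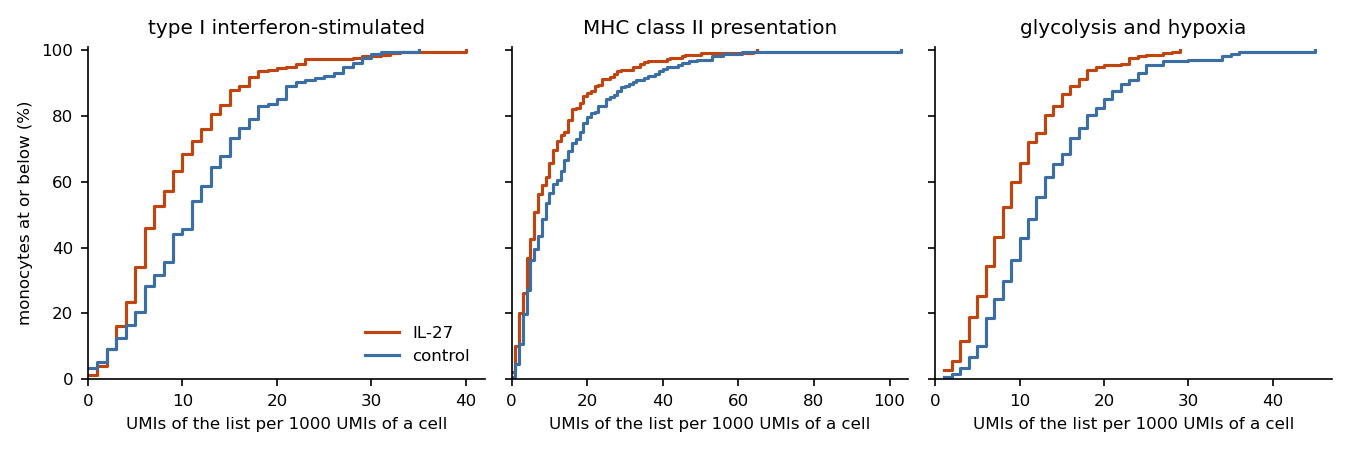
Cumulative share of monocytes (y axis, percent) by the UMIs of a gene list in each cell after thinning to 1000 UMIs (x axis), for IL-27 and control. For type I interferon-stimulated genes the median cell held 7 UMIs in the IL-27 and 11 in the control matrix, for MHC class II genes 6 and 9, and for glycolysis and hypoxia genes 8 and 12.

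Inflammatory cytokine genes leaned lower, mainly in cells with Ly6c2. There 7 of 17 genes were lower and 1 higher, beside 8.68% and 8.76% of all genes on that side, with a median log2 ratio of -0.36. In cells without Ly6c2 0 of 15 were lower or higher, beside 9.83% and 7.96% of all genes. The median there was -0.12, and the difference between the sides was not tested. Over all monocytes 5 of 19 genes were lower and 0 higher, with a median of -0.39, and of 0.023 once the ratio in all other cells was taken off. Among them Tnf stood at 261 and 446 CPM, giving a ratio of 0.584 (0.516 to 0.661), and Nfkbia, the NF-kappaB inhibitor that the pathway itself induces, at 1862 and 2889 CPM. Il23a, Il12a and Il18 were lower with 25 and 90, 16 and 38, and 25 and 51 UMIs, and 3 cells held 57.8% of the control Il23a UMIs. With the rule on thinned cells the log2 ratio of Il23a was 0.14. Il1b, which did not pass the fold, stood at 8924 and 12283 CPM, giving a ratio of 0.727 (0.711 to 0.742), and its ratio was 0.634 in cells with Ly6c2 and 0.810 in cells without it. Nearest to or above 1 were Il6 with 1.22 (0.946 to 1.57), the IL-1 receptor antagonist Il1rn with 1.06 and Thbs1, the gene of thrombospondin, with 1.04. Il10, the suppressive cytokine that IL-27 induces in T cells, had 33 and 1 UMIs, a ratio of 35.7 (5.98 to 1454), under the minimum of 50 UMIs, and 3 cells held 72.7% of the IL-27 UMIs.

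Chemokine genes were mixed. Of 18 genes 5 were lower and 1 higher, with a median log2 ratio of -0.22, and of 0.13 once the ratio in all other cells was taken off. Ccl24, an eosinophil attractant that marked many of these cells, stood at 3210 and 2401 CPM, giving a ratio of 1.34 (1.28 to 1.39), and was seen in 42.2% and 33.3% of thinned cells. The sides of the Ly6c2 split differed for it: it stood at 2779 CPM in IL-27 and 578 CPM in control cells with Ly6c2, giving a ratio of 4.81 (4.34 to 5.34), and at 3584 and 3995 CPM in cells without it, giving a ratio of 0.897 (0.854 to 0.942). The lower genes Ccl22, Ccl5 and Ccl17 had 83.3% and 93.5%, 92.0% and 90.7%, and 68.0% and 62.3% of their UMIs in 3 cells of each matrix, so they describe few cells, and the log2 ratio of Ccl17 was 0.64 with a Ly6c2 UMI required. Cxcl16 and Ccl12 were the other lower genes, with ratios of 0.570 (0.449 to 0.720) and 0.637 (0.467 to 0.863). Ccl2, the ligand of CCR2, had a ratio of 0.917 and the neutrophil attractant Cxcl2 one of 0.888, neither past the fold. Among receptor and adhesion genes 1 of 16 was higher, Cxcr4, and 1 lower, Ccr7.

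The receptor for IL-27 was hardly seen in these cells. Il27ra (ENSMUSG00000005465, chromosome 8, minus strand) had 1 UMI in IL-27 and 0 in control monocytes, which allows up to 1.81 CPM in control by a floor of 3 counts, so a difference was not detectable at this depth. Il6st, which encodes the shared chain gp130, stood at 64.0 CPM (52.0 to 78.0) in IL-27 monocytes and at 39.2 CPM (30.3 to 50) in control monocytes, giving a ratio of 1.63 (1.18 to 2.27), and at 1.5 in macrophages and 2.18 in neutrophils. Stat3, a factor that IL-27 is known to activate, stood at 250 and 241 CPM, giving a ratio of 1.04 (0.901 to 1.20). Socs3, a feedback inhibitor that STAT3 induces, was lower at 816 and 1248 CPM, giving a ratio of 0.654 (0.609 to 0.702), and was seen in 41.3% and 65.5% of thinned cells. Socs3 was lower in macrophages (0.681) and neutrophils (0.706) as well, and with its ratio in all other cells taken off the log2 ratio was 0.086. Socs1 had 83 and 108 UMIs, a ratio of 0.832 (0.618 to 1.12). Of 16 genes of the receptor and its signalling chain 1 was higher and 2 lower, with a median of -0.02.

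Transcription factor and maturation genes had members in both directions. Of 38 myeloid transcription factors 6 were higher and 1 lower, with a median log2 ratio of 0.12. The higher ones were Atf3, Maf, Cebpa, Klf6, Nr4a2 and Egr2, and Klf6, an injury-response factor, stood at 613 and 320 CPM, giving a ratio of 1.92 (1.72 to 2.13). The lower one was Irf7. Of 24 macrophage maturation genes 4 were higher (Hmox1, Maf, Apoe and Abca1) and 3 lower (Mmp12, Axl and Cd63), with a median of -0.20. Apoe, a lipid carrier of mature macrophages, stood at 79.0 and 42.8 CPM, giving a ratio of 1.85 (1.37 to 2.51), and Abca1, the cholesterol exporter, at 176 and 113 CPM. Mmp12 stood at 85.6 and 233 CPM, but 3 control cells held 51.3% of its UMIs, and its ratio was 6.53 in cells with Ly6c2 and 0.286 in cells without it.

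Among genes of suppressive or alternatively activated cells 3 of 19 were higher and 1 lower. Slc7a11 led, Cd36 (a scavenger receptor) and Clec4d (a C-type lectin of inflammatory myeloid cells) had ratios of 1.70 (1.23 to 2.37) and 1.53 (1.35 to 1.73), and Ass1, an arginine-synthesis enzyme, was lower at 0.642 (0.537 to 0.765). None of 18 checkpoint and costimulatory ligands passed the fold in either direction. Cd274, which encodes PD-L1 and is induced by IL-27 in some cell types, stood at 322 and 305 CPM, giving a ratio of 1.06 (0.930 to 1.20), and Pdcd1lg2, which encodes PD-L2, at 28.7 and 29.6 CPM. Pattern recognition and Fc receptor genes had 2 of 21 higher (Cd36 and Tlr2, with Tlr2 at 342 and 224 CPM) and 3 lower (Fcgr4, Fcgr1 and Nod2). Oxidative burst and antimicrobial genes had 4 of 17 lower and 0 higher, with a median of -0.32, and of 0.0085 once the ratio in all other cells was taken off: Prtn3, Slpi, Rac2 and Ncf4 had ratios of 0.433, 0.570, 0.624 and 0.664. Growth factor receptor and survival genes had 2 of 28 higher, Tgfbr1 and the death inducer Bcl2l11, with ratios of 2.07 and 1.80, and 1 lower, Bcl2a1a, with 0.624, which shares sequence with other Bcl2a1 genes.

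The classical list stood close to level and the non-classical list somewhat lower. Of 16 classical genes 1 was higher and 2 lower, with a median log2 ratio of 0.04: Hp, the hemoglobin scavenger haptoglobin, at 138 and 296 CPM, giving a ratio of 0.466 (0.395 to 0.549), and Ly6c2. Mmp8 was the higher one, with 37 and 26 UMIs and a ratio of 1.54 (0.909 to 2.65), and a log2 ratio of -0.035 with each cell weighted equally. Of 10 non-classical genes Cd36 was higher and Fcgr4 lower, with a median of -0.28. Nr4a1, the factor that non-classical monocytes need, stood at 138 and 195 CPM, giving a ratio of 0.709 (0.593 to 0.845). Proliferation genes had only 6 members with 50 UMIs, of which 1, Tuba1b, was lower, and Pcna stood at 71.9 and 48.2 CPM.

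Genes that tissue dissociation is known to induce moved in both directions. Of 30 genes 4 were higher (Atf3, Klf6, Jun and Egr2) and 5 lower (Dusp2, Hspa1a, Ier2, Btg2 and Socs3), with a median of -0.21, and of 0.10 once the ratio in all other cells was taken off. Jun stood at 197 and 113 CPM, giving a ratio of 1.73 (1.44 to 2.09), and Ier2 at 218 and 379 CPM, giving a ratio of 0.573 (0.501 to 0.656). These genes stand in the same list as Atf3, Klf6 and Socs3 above, and the part of dissociation in those values was not tested.

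The lists differed in where along the Ly6c2 axis the IL-27 and control monocytes stood apart. In cells with Ly6c2, 8.76% of 3733 genes were at least 1.5 times higher and 8.68% lower in the IL-27 matrix, and in cells without it 7.96% of 4110 genes were higher and 9.83% lower. Type I interferon genes were lower for 18 of 31 in cells with Ly6c2 and for 10 of 25 in cells without it. MHC class II genes were lower for 1 of 11 with Ly6c2 and for 7 of 11 without it, with medians of -0.32 and -0.70. Glycolysis genes were lower for 7 of 25 and 13 of 26, with medians of -0.38 and -0.58. No list member was higher in any of these 6 counts, and the differences between the sides were not tested.

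Single genes did not all follow their lists along this split, and these were picked after their values had been seen. Cd74 stood at 2749 CPM in IL-27 and 3421 CPM in control cells with Ly6c2, a ratio of 0.804 (0.758 to 0.852), and at 4444 and 7747 CPM in cells without it, a ratio of 0.574 (0.551 to 0.597). Cst3 had ratios of 0.776 and 0.444 on the same sides. Hmox1 was higher on both sides, at 339 and 34.9 CPM in cells with Ly6c2, a ratio of 9.71 (6.51 to 15), and at 162 and 52.0 CPM in cells without it, a ratio of 3.12 (2.22 to 4.46). Slc7a11 had ratios of 2.28 and 1.77 and Cxcr4 ratios of 2.99 and 2.18, so both stood higher on either side. The interferon-stimulated genes went both ways: Irf7 had ratios of 0.348 (0.258 to 0.463) with Ly6c2 and 0.492 (0.322 to 0.738) without it, and Isg15 ratios of 0.516 (0.434 to 0.613) and 0.329 (0.266 to 0.404).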

How the data were processed

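CD45-enriched cells of subcutaneous OV2944-HM1 tumours were measured by droplet 5' single-cell RNA sequencing. The deposited values are raw UMI counts per gene and cell, made with Cell Ranger 4.0.0 per the file headers (mm10 and Seurat 3.2.0 are also named in the submitters' processing notes, with no role given). What the authors filtered, and how doublets were treated before deposit, is not given in the sources used here.

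Counts were read as 1 matrix per group, with n = 1 per group and no test. Monocytes were chosen by a rule on raw counts, and their UMIs were summed per matrix and scaled to a sum of 1000000 (CPM). Intervals are exact Poisson for levels, exact conditional binomial for ratios and Clopper-Pearson for shares, all at 95%, and cover counting error only. A gene counted as higher or lower at 1.5-fold with at least 50 UMIs over both matrices. Genes at 0 were given a floor of 3 counts over the summed monocytes. Shares of cells were compared after thinning to 1000 UMIs per cell. C1q macrophages held at least 6 C1q UMIs and neutrophils at least 20 S100a8 and S100a9 UMIs. Genes named on their own were the 12 with the highest and the 12 with the lowest ratio among genes with at least 50 UMIs, and a UMI in at least 10% of monocytes, in the matrix of the higher level, leaving out rule genes, markers of other cells and unnamed gene models. From each list the 3 highest and 3 lowest members were named, beside Ly6c2, Ccr2 and genes of the IL-27 pathway. Other members were named after their values had been seen. Scrublet (scanpy 1.11.5) called 167 IL-27 and 0 control cells as doublets and 0 monocytes, so it did not work in the control matrix, and no cell was removed. Alternatives changed the rule, depth, scaling, gene minimum and length trend. The computation was tested on simulated data (Python 3.11.15, scipy 1.17.1). Members and lists were chosen with earlier results of these data known. Results for some genes are not reported here.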

Additional observations from a re-analysis of the deposited data

Results flagged for a closer look

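Among 146 named genes with at least 50 UMIs in both monocytes and C1q macrophages, 3 passed 1.5-fold in opposite directions in the 2 cell classes, and in none was the difference between the classes tested. Cxcl10, a chemokine for activated T cells, had an IL-27 over control ratio of 1.74 (1.40 to 2.18) in monocytes and of 0.550 (0.412 to 0.725) in macrophages. In the IL-27 matrix 3 monocytes held 80.8% of its UMIs, and in control 45.6%. Slpi, a secreted protease inhibitor, stood at 864 CPM in IL-27 and 1514 CPM in control monocytes, a ratio of 0.570 (0.533 to 0.610), and at 75.6 and 41.8 CPM in macrophages, a ratio of 1.81 (1.49 to 2.20). Hspa1a, an inducible heat shock protein gene, had 17 and 36 UMIs in monocytes, a ratio of 0.511 (0.269 to 0.934), with 70.6% and 69.4% of them in 3 cells, and 271 and 155 UMIs in macrophages, a ratio of 3.51 (2.87 to 4.30).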

How the results depend on the processing

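Of 437 list medians recomputed under 19 alternatives, 51 lay on the other side of 0 than the reported value, in 15 of 23 lists, mostly in those whose reported median lay near 0. Of 2462 values of single genes 77 did so, in 43 of 145 genes, and for 14 of these values the gene had been past 1.5-fold. Hmox1 stayed between 2.26 and 2.69 and Gclm between 1.83 and 2.68 on the log2 scale. The ratio of monocyte shares was 1.68 in cells of at least 2000 UMIs and otherwise lay between 1.23 and 1.52. Genes past 1.5-fold numbered 698 higher and 919 lower with at least 20 UMIs, 86 and 119 with at least 200 UMIs, and 262 and 288 with the rule on cells thinned to 2000 UMIs, and 177 were higher once the ratio in all other cells was taken off. With the rule on thinned cells the median of the type I interferon list was 0.018, and the log2 ratios were 0.068 for Hic1, -1.14 for Cxcl10, 0.14 for Il23a, 0.39 for H2-M3, 0.15 for Mmp12 and 1.32 for Hspa1a. With at least 5 UMIs of the monocyte genes the MHC class II median was -0.79 and Ccl17 stood at 0.069. With a Ly6c2 UMI required the dendritic median was 0.16, and Car4, Ccl17 and Mmp12 stood at 0.29, 0.64 and 1.56. With the length trend removed the oxidative phosphorylation median was 0.039. With the ratio in all other cells taken off, the medians were 0.31 for classical, 0.13 for chemokine, 0.023 for inflammatory, -0.16 for type I interferon, 0.0085 for oxidative burst, -0.17 for glycolysis and 0.10 for dissociation genes, and Socs3 stood at 0.086. Hspa1a stood at 0.14 without the highest doublet scores, Mmp8 at -0.035 with each cell weighted equally, and Cxcl10 at -0.16 without monocytes that carried markers of other cells. Why these values moved was not tested, apart from the fewer genes or cells that a stricter minimum leaves. The unequal depth of the matrices and the small number of cells limit what low genes such as Il27ra can show. No paired analysis was possible because each group is 1 matrix with no map from cells to the labelled entries.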
